A study of Homo sapiens with 38 samples.

Results

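The genes that write, maintain and remove methyl groups on cytosine were followed in HCT116, a human colorectal carcinoma cell line, and in 4 edited HCT116 lines that lack Argonaute (AGO) proteins. The 8 genes were taken by name: DNMT1, DNMT3A, DNMT3B, UHRF1, TET1, TET2, TET3 and TDG, out of 58425 genes with an annotated transcript in the files. Salmon's estimated reads and its length-corrected abundance, in transcripts per 1000000 (TPM), were summed over the Ensembl transcripts of each gene. RNA had been sequenced separately from nuclei and from cytoplasm, with 3 libraries for each of the 5 genotypes in each fraction, 30 libraries in all. The genotypes carry in the labels the names wild type, AGO1-/-, AGO2-/-, the joint AGO1-/-, AGO2-/- (AGO1/2 below) and the joint AGO1-/-, AGO2-/-,AGO3-/- (AGO1/2/3 below). All of them were grown in the same medium, and no genotype names AGO4.

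Each knockout genotype appears in the labels as 1 line made by gene editing. The libraries of a group were taken at different passages, 27 to 29 for wild-type cells and 6 to 14 for the knockout lines. These were successive except in AGO1/2/3 cells, taken at passages 11, 12 and 14. Genotype, clone and passage therefore cannot be told apart, and p-values measure the spread between passages of a line. The labels do not say that passages were grown independently. Library totals ranged from 20431557 to 54097984 estimated reads in nuclear RNA and from 39476205 to 79731793 in cytoplasmic RNA, and the wild-type libraries were the shallowest of each fraction. The 8 genes had between 546 estimated reads (TET1) and 26088 estimated reads (DNMT1) in a library, so the spread between libraries rather than counting sets the precision of most values. In AGO1/2/3 cells the log2 fold change of AGO1 mRNA was -1.70 in nuclear and -3.29 in cytoplasmic RNA. AGO2 and AGO3 mRNA differed far less, by -0.44 and -0.30 in the nucleus, and for these genes mRNA level checks the label weakly. All 8 epithelial markers examined were expressed, with means of at least 5.49 TPM in each fraction. Of 8 markers of blood, endothelial, stromal and liver cells, 7 averaged under 1 TPM in each fraction, with DCN listed at 0, and the summed level of the 8 was 0.446 to 3.87 TPM in nuclear and 0.545 to 4.06 TPM in cytoplasmic libraries. The exception was the macrophage marker CD68, which was higher in AGO1/2/3 than in wild-type cells (log2 fold change 2.57 in nuclear and 1.61 in cytoplasmic RNA), and its part in the results was not tested.

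DNA methylation in mammals is laid down at cytosines followed by guanine. DNMT3A and DNMT3B place methyl groups on unmethylated DNA. DNMT1 copies the pattern onto the new strand at each round of replication, guided there by UHRF1, which recognises half-methylated sites. TET1, TET2 and TET3 oxidise 5-methylcytosine in steps, and TDG excises the most oxidised bases so that base excision repair can restore unmodified cytosine. HCT116 cells have been used widely to study loss of DNMT1 and DNMT3B. Several of these mRNAs are textbook targets of miR-29, a microRNA (miRNA) family, and miRNAs act through AGO proteins.

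The mature sequence of miR-29a-3p and examples of the sites that pair with its seed are shown because the members differ in whether they carry such a site. In the miRNA the capitals mark the seed, bases 2 to 8. In each gene, read on the sense strand 5′ to 3′ from GRCh38, the capitals mark TGGTGCT, the reverse complement of that seed, with the surrounding bases in lower case. The miRNA sequence is from RefSeq (GRCh38.p14), and the sites lie in annotated 3′ UTRs.
hsa-miR-29a-3p: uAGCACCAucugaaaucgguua
DNMT3A, chr2:25233410-25233433, minus strand: caacccgacttcataaTGGTGCTt
DNMT3B, chr20:32809089-32809112, plus strand: cttttactcttcttacTGGTGCTa
TET1, chr10:68692081-68692104, plus strand: atagaatcactcagttTGGTGCTt
TET3, chr2:74105409-74105432, plus strand: gttctcacaaaataacTGGTGCTa
TDG, chr12:103988138-103988161, plus strand: tctaatgagttttccaTGGTGCTa
In the longest annotated 3′ UTR of each gene, TET3 held 10 matches, DNMT3A 4, TET1 and TDG 3 each, DNMT3B and TET2 1 each, and DNMT1 and UHRF1 none. For TET2 the canonical transcript ends in another 3′ UTR, which held 4. Of 19248 genes with a 3′ UTR, 15.04% held at least 1 match. The median length of these 3′ UTRs was 1228 bases, and that of every member was longer. It was 6424 bases in DNMT3A, 6000 in TET3, 5331 in TET2 and 2673 in TET1. The background share was not matched for length, so it cannot tell whether the members hold more matches than other 3′ UTRs as long. For the other families searched, DNMT1 held 1 match, to miR-148a-3p, and UHRF1 1, to miR-200b-3p. A match is a description of the sequence, and miRNAs themselves were not measured in these libraries.

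In wild-type nuclei DNMT1 and UHRF1 were the most abundant of the 8 genes per length. DNMT1 (ENSG00000130816.17, chr19:10133342-10231286, minus strand) averaged 110.7 ± 19.5 TPM (SD, n = 3) and lay above 97.29% of the genes tested in nuclear RNA. UHRF1 (ENSG00000276043.5, chr19:4903080-4962154, plus strand) averaged 51.8 ± 11.2 TPM. TDG (ENSG00000139372.15, chr12:103965822-103988874, plus strand) followed at 21.1 ± 5.31 TPM. These 3 genes did not overlap each other or the rest. DNMT3B (ENSG00000088305.19, chr20:32762385-32809359, plus strand) averaged 13.1 ± 0.902 TPM, TET2 (ENSG00000168769.14, chr4:105145875-105279816, plus strand) 11.3 ± 2.01 TPM and TET3 (ENSG00000187605.16, chr2:73984910-74108176, plus strand) 8.94 ± 2.80 TPM. Neighbours in that order overlapped, as did TET3 and DNMT3A (ENSG00000119772.19, chr2:25227855-25342590, minus strand; 6.40 ± 0.0848 TPM). TET1 (ENSG00000138336.9, chr10:68560337-68694487, plus strand) was lowest, at 2.98 ± 0.548 TPM, below every library of the others. In wild-type cytoplasm the order was nearly the same, with DNMT1 at 48.5 ± 5.73 TPM and UHRF1 at 44.3 ± 8.15 TPM overlapping at the top and TET1 at 1.16 ± 0.210 TPM at the bottom. In the cytoplasm of AGO1/2 cells TET1 (1.43 to 1.95 TPM) overlapped DNMT3A (1.48 to 1.74 TPM) and no longer ranked last.

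**Figure D1:**
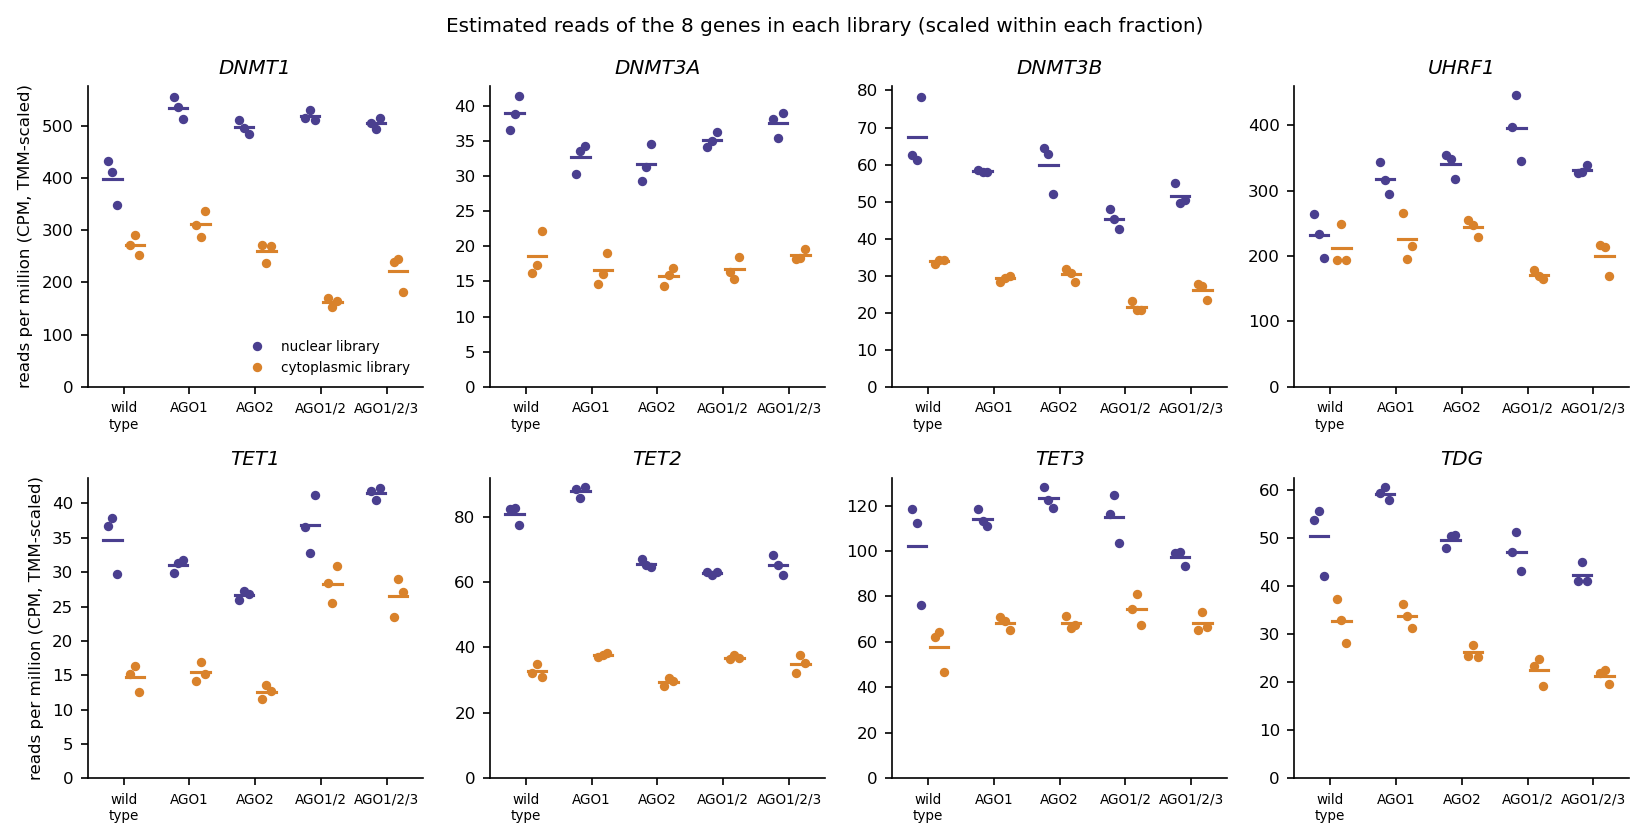
CPM (vertical axis, linear from 0) of the 8 genes in each library by genotype; each point is 1 library, the short line is the mean of 3, and scaling was done within each fraction, so heights compare genotypes of 1 colour and not the colours. Nuclear DNMT1 was at 348.2 to 431.8 in wild-type cells and 484.4 to 555.7 in the 4 knockout lines, and cytoplasmic TET1 was at 12.5 to 16.4 in wild-type cells against 23.5 to 30.8 in AGO1/2 and AGO1/2/3 cells.

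For each knockout line, all genes were tested against wild type with edgeR (quasi-likelihood), and an adjusted p of 0.05 or less is named a call here. All 8 genes passed the filter on low counts in both fractions. In nuclear RNA 3 of the 8 genes were called in AGO1 cells, where 29.9% of all genes were, and 5 of 8 in AGO2 cells, where 40.2% were. In AGO1/2 cells 4 of 8 were called against 67.6% of all genes, and in AGO1/2/3 cells 6 of 8 against 58.6%. In cytoplasmic RNA edgeR called no member in AGO1 or AGO2 cells, against 12.4% and 16.1% of all genes. At an unadjusted p under 0.05, 3 members passed in AGO1 cells and 4 in AGO2 cells there, where 4879 and 5276 of all 17605 genes did. DESeq2 called 2 members in AGO1 cells (DNMT3B and TET2) and 1 in AGO2 cells (TDG). The edgeR calls in cytoplasm were 6 of 8 in AGO1/2 cells, against 49.2%, and 4 of 8 in AGO1/2/3 cells, against 38.7%. With so many genes called in these lines, the number of members called says little, and the direction and size for each gene are what follows. The 4 comparisons of a fraction share the same 3 wild-type libraries, so they are not independent of each other.

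The maintenance pair, DNMT1 and UHRF1, rose in the nucleus of all 4 lines in reads scaled by TMM, which are not corrected for transcript length. In the cytoplasm of AGO1/2 cells DNMT1 fell. On log2(TPM + 1), nuclear DNMT1 turned to -0.026 in AGO2 and -0.014 in AGO1/2/3 cells. Its mean nuclear TPM was 110.7 in wild-type, 118.6 in AGO1, 107.7 in AGO2, 121.8 in AGO1/2 and 108.5 in AGO1/2/3 cells. Nuclear DNMT1 was 431.8, 410.7 and 348.2 counts per 1000000 (CPM) in the wild-type libraries of passages 27, 28 and 29. It was 555.7, 535.2 and 513.1 in AGO1 cells, 511.4, 495.5 and 484.4 in AGO2 cells, 514.0, 529.7 and 511.7 in AGO1/2 cells and 505.3, 493.9 and 514.6 in AGO1/2/3 cells. No knockout library was as low as the highest wild-type library, and passage 29 was the lowest of the wild-type libraries. The log2 fold changes were 0.43 ± 0.069 (SE; edgeR adjusted p = 0.000371) in AGO1 cells, 0.32 ± 0.069 (adjusted p = 0.00177) in AGO2 cells, 0.39 ± 0.069 (adjusted p = 0.000156) in AGO1/2 cells and 0.35 ± 0.069 (adjusted p = 0.00052) in AGO1/2/3 cells. On log2(TPM + 1), a scale on which the median gene fell by 0.17 in AGO2 and 0.16 in AGO1/2/3 cells, the differences in those 2 lines lay 0.14 above the median gene. All 4 calls were lost on that scale (limma adjusted p = 0.3 to 0.932), and leaving out any library kept all 4.

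Nuclear UHRF1 was 264.6, 232.9 and 196.6 CPM in wild-type cells. The knockout libraries ran from 295.4 to 343.0 in AGO1 cells, 317.7 to 354.3 in AGO2 cells, 344.7 to 445.8 in AGO1/2 cells and 326.7 to 339.2 in AGO1/2/3 cells, again without overlap with wild type. Its rise was largest in AGO1/2 cells, at 0.77 ± 0.104 (adjusted p = 9.54e-06), a 1.71-fold difference. The other lines gave 0.46 ± 0.104 (AGO1, adjusted p = 0.00401), 0.55 ± 0.104 (AGO2, adjusted p = 0.000695) and 0.52 ± 0.104 (AGO1/2/3, adjusted p = 0.000541). On log2(TPM + 1) UHRF1 stayed above wild type in all 4 lines, and the calls in AGO1, AGO2 and AGO1/2/3 cells were lost (0.21 to 0.28, limma adjusted p = 0.144 to 0.32).

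Cytoplasmic DNMT1 was 271.4, 290.2 and 252.3 CPM in wild-type cells, and 169.8, 152.5 and 165.1 in AGO1/2 cells. This was a log2 fold change of -0.74 ± 0.106 (edgeR adjusted p = 4.62e-05), with every AGO1/2 library below every wild-type library. The AGO1/2/3 libraries, at 239.1, 245.0 and 181.3 CPM, were also below wild type, by -0.29 ± 0.105 (adjusted p = 0.0405). That call was lost without wild-type passage 27 (-0.29, adjusted p = 0.0832) or 28 (-0.24, adjusted p = 0.141) and without AGO1/2/3 passage 14 (-0.16, adjusted p = 0.183). In AGO1 cells (287.5 to 337.0 CPM) and AGO2 cells (236.8 to 271.2 CPM) the libraries overlapped wild type. Cytoplasmic UHRF1 was not called in any line. Its AGO1/2 libraries, at 179.1, 169.7 and 165.1 CPM, were nevertheless all below the wild-type libraries at 194.1, 249.3 and 193.7, with a difference of -0.31 ± 0.125 (adjusted p = 0.0524).

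**Figure D2:**
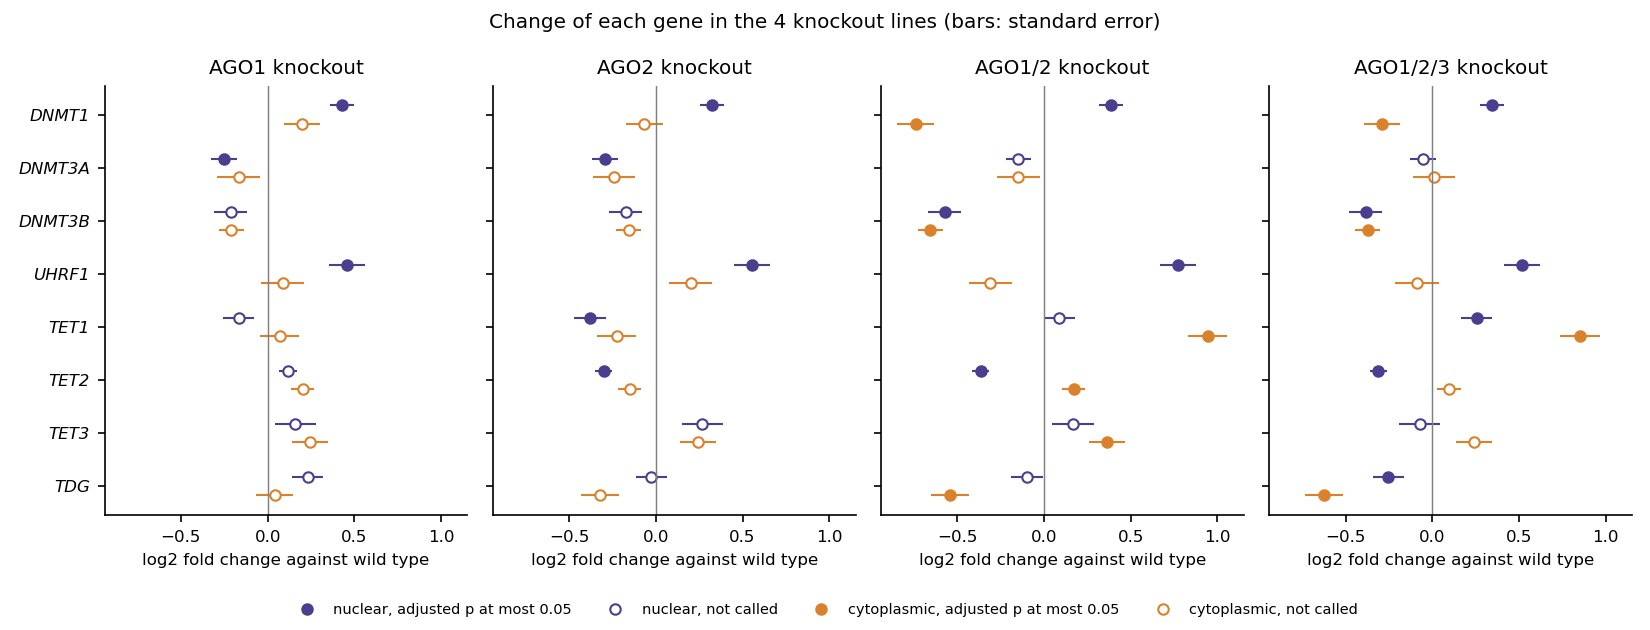
Log2 fold change against wild type (horizontal axis) of each gene in the 4 knockout lines, with the standard error as a bar; filled points passed an adjusted p of 0.05 and open points did not. DNMT1 and UHRF1 lay above 0 in all 4 nuclear comparisons (on log2(TPM + 1) DNMT1 turned to -0.026 in AGO2 and -0.014 in AGO1/2/3 cells), and cytoplasmic TET1 rose by 0.94 in AGO1/2 and 0.85 in AGO1/2/3 cells.

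By CPM, the de novo methyltransferases behaved differently from each other. DNMT3B was called lower in both fractions of AGO1/2 and AGO1/2/3 cells, and DNMT3A in the nuclei of the AGO1 and AGO2 lines. Nuclear DNMT3B was 62.6, 61.3 and 78.3 CPM in wild-type cells, 48.0, 45.2 and 42.7 in AGO1/2 cells and 55.1, 49.5 and 50.3 in AGO1/2/3 cells. Cytoplasmic DNMT3B was 33.2, 34.2 and 34.2 CPM in wild-type cells, 23.0, 20.6 and 20.9 in AGO1/2 cells and 27.8, 27.3 and 23.5 in AGO1/2/3 cells. No library of either line reached the lowest wild-type library of its fraction. In AGO1/2 cells the log2 fold changes were -0.57 ± 0.096 (edgeR adjusted p = 7.95e-05) in the nucleus and -0.66 ± 0.074 (adjusted p = 5.02e-06) in the cytoplasm. AGO1/2/3 cells gave -0.38 ± 0.095 (adjusted p = 0.0029) and -0.37 ± 0.073 (adjusted p = 0.00104). These 4 calls held in every alternative and with any library left out. In the single knockouts the differences of DNMT3B ranged from -0.21 to -0.16 and edgeR called none, although the AGO1 libraries lay below wild type in both fractions (58.5, 57.9 and 58.1 CPM in the nucleus) and the AGO2 libraries in the cytoplasm (31.9, 30.8 and 28.3 CPM). DESeq2 called the cytoplasmic difference in AGO1 cells (-0.21, adjusted p = 0.0473), and limma on log2(TPM + 1), on which the median gene fell too, called the difference in both fractions of both lines (-0.39 to -0.29, adjusted p = 0.00954 to 0.0232).

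Nuclear DNMT3A was 36.5, 38.8 and 41.4 CPM in wild-type cells, 30.3, 33.5 and 34.2 in AGO1 cells and 29.3, 31.3 and 34.6 in AGO2 cells, with no overlap. The log2 fold changes were -0.25 ± 0.075 (edgeR adjusted p = 0.0196) and -0.29 ± 0.074 (adjusted p = 0.00581). The AGO1 call was lost without wild-type passage 29 (-0.19, adjusted p = 0.0681) or AGO1 passage 6 (-0.20, adjusted p = 0.102). In AGO1/2 cells (34.1, 34.9 and 36.2 CPM) all libraries were below wild type too, by -0.15 ± 0.074 (adjusted p = 0.0873), and in AGO1/2/3 cells (38.1, 35.4 and 38.9 CPM) they overlapped it. In TPM, nuclear DNMT3A was below wild type (6.31 to 6.48) without overlap in all 4 lines. It was 4.21 to 5.07 in AGO1, 4.28 to 4.61 in AGO2, 4.86 to 5.23 in AGO1/2 and 4.33 to 5.43 in AGO1/2/3 nuclei. On log2(TPM + 1) the median gene fell too, by 0.07 (AGO1/2) to 0.17 (AGO2). Cytoplasmic DNMT3A was not called in any line, with differences from -0.24 to 0.01.

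Within DNMT3B the knockout lines differed from wild type in which transcript carried the RNA. DNMT3B-204 (ENST00000353855.6, 833 residues) and DNMT3B-203 (ENST00000348286.6, 770 residues) together held most of the gene's TPM. DNMT3B-203 lacks exactly 2 exons of DNMT3B-204: exon 20 at chr20:32805338-32805407 (70 bases) and exon 21 at chr20:32806209-32806327 (119 bases), which together keep the reading frame and account for 63 residues. As background, these exons encode part of the catalytic domain, and the form without them is known as catalytically inactive. The joins that tell the forms apart are given on the plus strand of GRCh38, 15 bases to each side, with the capitals marking the exon on the right of the join.
DNMT3B-203, the preceding exon to the last: acccgggatgaacagGATCTTTGGCTTTCC
DNMT3B-204, the preceding exon to exon 20: acccgggatgaacagGCCCGTGATAGCATC
DNMT3B-204, exon 20 to exon 21: aataggatagccaagTTAAAGAAAGTACAG
DNMT3B-204, exon 21 to the last: cactgagctcgaaagGATCTTTGGCTTTCC
Each of these joins was held by 3 of the 6 DNMT3B transcripts in the files. The left-hand bases of the first join end at 32802470 and its right-hand bases begin at 32807762.

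The form without the exons was the minor form in wild-type cells and the major form in AGO1/2 and AGO1/2/3 cells. In wild-type nuclei DNMT3B-203 held 36.1%, 40.5% and 29.8% of the gene's TPM, and DNMT3B-204 54.6%, 43.0% and 58.9%. In AGO1/2 nuclei the shares were 67.8%, 68.5% and 64.4% for DNMT3B-203 against 16.4%, 18.6% and 24.6% for DNMT3B-204. AGO1/2/3 nuclei had 63.1%, 49.5% and 72.2% against 27.6%, 36.6% and 18.1%. Every library of these lines had more DNMT3B-203 than DNMT3B-204, every wild-type library had less, and passage 12 of AGO1/2/3 was the closest to wild type. The same order was seen in cytoplasmic RNA. There DNMT3B-203 held 41.0%, 39.0% and 24.2% in the wild-type libraries, 63.6%, 72.0% and 68.6% in AGO1/2 cells and 65.4%, 65.5% and 71.9% in AGO1/2/3 cells. DNMT3B-204 fell from 47.6%, 54.3% and 69.9% to between 17.8% and 25.1%.

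The share of a transcript was compared with limma on the log2 ratio of its TPM to that of the gene's other transcripts. DNMT3B-204 changed by -2.10 ± 0.333 (limma adjusted p = 0.000505) in AGO1/2 and by -1.54 ± 0.333 (adjusted p = 0.00589) in AGO1/2/3 nuclei, and by -2.12 ± 0.275 (adjusted p = 0.00118) and -2.11 ± 0.275 (adjusted p = 0.00158) in the cytoplasm. DNMT3B-203 changed by 1.85 ± 0.297 (adjusted p = 0.000538) and 1.55 ± 0.297 (adjusted p = 0.00305) in the nucleus and by 1.92 ± 0.256 (adjusted p = 0.00143) and 1.91 ± 0.256 (adjusted p = 0.00194) in the cytoplasm. All 8 calls held with any library left out, with a larger pseudocount and with a stricter filter on shares. In TPM, nuclear DNMT3B-204 averaged 6.87 ± 1.49 in wild type, 1.74 ± 0.220 in AGO1/2 and 2.40 ± 0.764 in AGO1/2/3 cells, whereas DNMT3B-203 was 4.61 ± 0.412, 5.95 ± 0.663 and 5.43 ± 1.18. The lower gene total in these lines was therefore carried by the form with both exons. The means of the AGO1 and AGO2 lines lay between, with ranges that overlapped those of neighbouring groups in part, and their shares were not tested. The ratio of DNMT3B-203 to DNMT3B-204 was 0.505 to 0.941 in wild-type nuclei, 0.871 to 1.42 in AGO1, 1.19 to 1.59 in AGO2, 2.61 to 4.13 in AGO1/2 and 1.35 to 3.98 in AGO1/2/3 nuclei. In cytoplasm the ratio was 0.346 to 0.861, 0.656 to 0.918, 1.01 to 1.27, 2.78 to 3.68 and 2.61 to 4.04 in the same order. Reads across the joins were not used here, so the shares rest on how Salmon divided 287.61 to 1438.5 estimated reads per transcript and library.

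**Figure D3:**
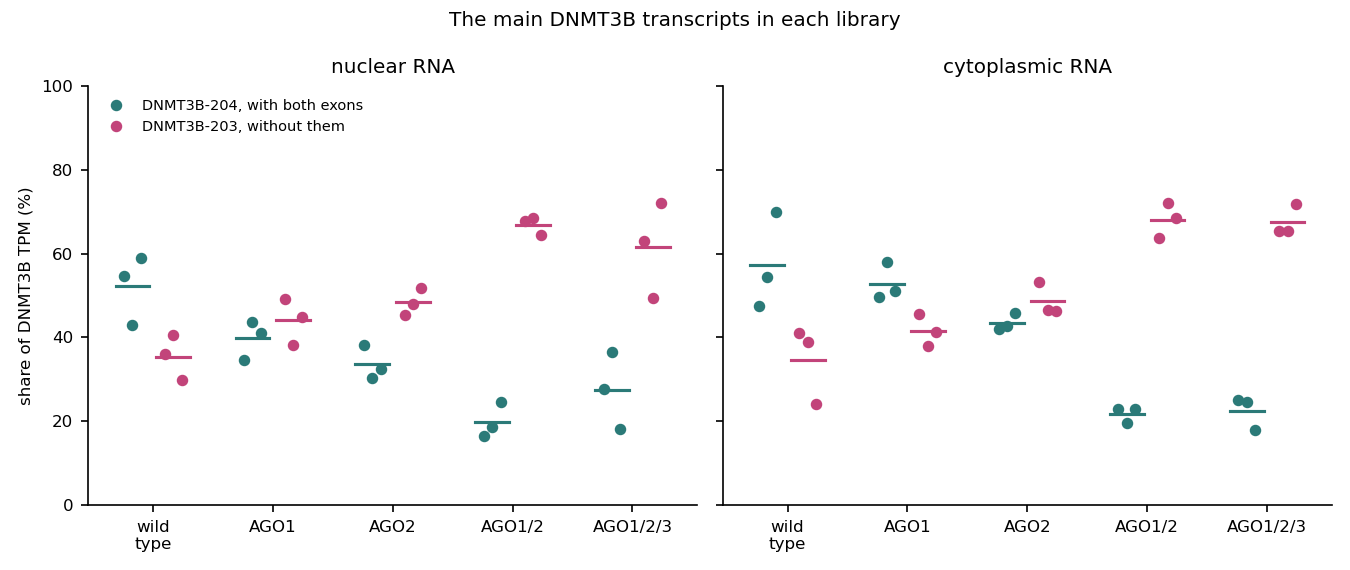
Share of DNMT3B TPM (vertical axis, percent) held by DNMT3B-204, with both exons, and DNMT3B-203, without them, in each library of the 5 genotypes, for nuclear RNA on the left and cytoplasmic RNA on the right; points are libraries and lines are means of 3. DNMT3B-204 was above DNMT3B-203 in all 6 wild-type libraries and below it in all 12 libraries of AGO1/2 and AGO1/2/3 cells.

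Of the dioxygenases, TET1 rose in the cytoplasm and TET2 fell in the nucleus of AGO1/2 and AGO1/2/3 cells. TET1, the scarcest of the 8 genes, was 15.2, 16.4 and 12.5 CPM in wild-type cytoplasm. It was 28.5, 25.5 and 30.8 in AGO1/2 cells and 23.5, 29.0 and 27.1 in AGO1/2/3 cells, where every library exceeded every wild-type library. The log2 fold changes were 0.94 ± 0.114 (edgeR adjusted p = 9.82e-06) and 0.85 ± 0.114 (adjusted p = 3.89e-05), or 1.92-fold and 1.80-fold, and these calls held without any 1 library. In the cytoplasm of AGO1 cells (14.2 to 16.9 CPM) and AGO2 cells (11.5 to 13.5 CPM) TET1 overlapped wild type and was not called.

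Nuclear TET1 changed less and not in 1 direction. Wild-type libraries were at 36.6, 37.8 and 29.7 CPM, AGO2 libraries at 26.0, 27.3 and 26.8 and AGO1/2/3 libraries at 41.9, 40.5 and 42.2, with AGO1 (29.8 to 31.8) and AGO1/2 (32.9 to 41.3) overlapping wild type. TET1 was lower in AGO2 nuclei by -0.38 ± 0.091 (edgeR adjusted p = 0.00384) and higher in AGO1/2/3 nuclei by 0.26 ± 0.089 (adjusted p = 0.0225). The second call was lost without wild-type passage 29 (0.18, adjusted p = 0.0543) or AGO1/2/3 passage 14 (0.25, adjusted p = 0.0554). TET1 has a single annotated transcript in the files, so its shares could not change.

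Nuclear TET2 was 82.5, 82.5 and 77.5 CPM in wild-type cells. It was 67.0, 65.2 and 64.7 in AGO2 cells, 63.0, 62.2 and 63.0 in AGO1/2 cells and 68.1, 65.2 and 62.2 in AGO1/2/3 cells, all below wild type. The log2 fold changes were -0.30 ± 0.050 (edgeR adjusted p = 0.000298), -0.37 ± 0.050 (adjusted p = 1.21e-05) and -0.31 ± 0.050 (adjusted p = 8.15e-05). AGO1 nuclei went the other way, with 88.4, 85.8 and 88.9 CPM, all above wild type, by 0.12 ± 0.050 (adjusted p = 0.0908). On log2(TPM + 1) that difference was -0.36, or -0.19 against the median gene. Cytoplasmic TET2 in AGO1/2 cells, at 36.4, 37.6 and 36.7 CPM against 32.2, 35.1 and 31.1 in wild type, was called at 0.17 ± 0.067 (adjusted p = 0.0478). That call was lost without wild-type passage 27 or 29 or any AGO1/2 library (0.14 to 0.19, adjusted p = 0.0675 to 0.131), and on log2(TPM + 1) the sign turned to -0.11, against a median gene at -0.20.

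TET3 was called in 1 comparison of a knockout line with wild type. In AGO1/2 cytoplasm it was 74.6, 81.1 and 67.4 CPM against 62.1, 64.4 and 46.8 in wild-type cells, a log2 fold change of 0.36 ± 0.104 (edgeR adjusted p = 0.00924). That call was lost with only the 2 groups in the fit (adjusted p = 0.068) and on log2(TPM + 1), where TET3 was at 0.10 (limma adjusted p = 0.487). The AGO1 (65.3 to 71.1 CPM), AGO2 (66.3 to 71.2 CPM) and AGO1/2/3 (65.2 to 73.2 CPM) libraries were all above the wild-type libraries too, by 0.24 to 0.25, and did not pass the test. Wild-type passage 29 was the lowest library for TET3 in both fractions (76.3 CPM in the nucleus against 118.3 and 112.1), which widened the spread of this gene.

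TDG, the glycosylase that removes oxidised bases, fell in the cytoplasm of AGO1/2 and AGO1/2/3 cells. It was 37.3, 32.8 and 28.2 CPM in wild-type cytoplasm, 23.4, 24.9 and 19.3 in AGO1/2 cells and 21.9, 22.5 and 19.6 in AGO1/2/3 cells, with no overlap. The log2 fold changes were -0.54 ± 0.109 (edgeR adjusted p = 0.000831) and -0.62 ± 0.109 (adjusted p = 0.000413). The AGO2 libraries, at 25.5, 27.8 and 25.3 CPM, were also all below wild type, by -0.32 ± 0.109 (adjusted p = 0.0583), and the AGO1 libraries (31.3 to 36.2 CPM) overlapped it. In the nucleus TDG was called in AGO1/2/3 cells alone, at 41.0, 45.0 and 41.1 CPM against 53.7, 55.6 and 42.1 in wild type, where the groups overlapped. That difference of -0.25 ± 0.091 (adjusted p = 0.0257) lost its call without wild-type passage 27 (-0.17, adjusted p = 0.163) or 28 (-0.15, adjusted p = 0.2) and without AGO1/2/3 passage 11 (-0.22, adjusted p = 0.0859) or 14 (-0.23, adjusted p = 0.0859).

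AGO1/2/3 cells were set against AGO1/2 cells to see what differed once AGO3 was edited too. In nuclear RNA edgeR called none of the 8 genes, where 3.48% of all genes were called. At an unadjusted p under 0.05, 1 of the 8 passed, UHRF1 (-0.26), where 4740 of all 18919 genes did. DESeq2 called 0 of the 8. In cytoplasmic RNA DNMT1 was higher in AGO1/2/3 cells by 0.45 ± 0.105 (edgeR adjusted p = 0.0336) and DNMT3B by 0.28 ± 0.073 (adjusted p = 0.0426), in all 3 libraries each, where 4.95% of all genes were called and 2.47% were higher. Both calls were lost without any 1 of AGO1/2 passages 9 and 10 and AGO1/2/3 passages 11 and 12 (DNMT1 0.37 to 0.49, adjusted p = 0.077 to 0.17; DNMT3B 0.25 to 0.34, adjusted p = 0.0672 to 0.196).

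The fractions of each line were then compared with each other, in a fit of all 30 libraries on a common scale. In wild-type cells 5 of the 8 genes were relatively nuclear and UHRF1 was relatively cytoplasmic, where 76.8% of all genes differed between fractions and 39.6% were relatively nuclear. TET2 was the most nuclear, at a mean of 69.8 CPM in nuclei and 38.3 CPM in cytoplasm on that scale, a log2 difference of 0.87 ± 0.062 (edgeR adjusted p = 1.81e-12). It was followed by TET1 at 0.81 ± 0.112 (adjusted p = 4.06e-07), DNMT3A at 0.63 ± 0.102 (adjusted p = 4.44e-06), DNMT3B at 0.55 ± 0.085 (adjusted p = 1.91e-06) and TET3 at 0.39 ± 0.125 (adjusted p = 0.00636). TET3 overlapped between fractions and lost its call without nuclear passage 27 (0.27, adjusted p = 0.0592) or cytoplasmic passage 29 (0.25, adjusted p = 0.0753). UHRF1 was at -0.31 ± 0.125 (adjusted p = 0.0277), with overlap. It lost its call without nuclear passage 28 (-0.31, adjusted p = 0.0512) or 29 (-0.18, adjusted p = 0.206) or cytoplasmic passage 28 (-0.18, adjusted p = 0.219), and on log2(TPM + 1) it turned to 0.22 against a median gene at 0.29. DNMT1 did not pass the test (0.12 ± 0.096, with a 95% interval of -0.07 to 0.30), and TDG was at 0.19 ± 0.108 (adjusted p = 0.114). With culture passage as a replicate block, which the wild-type libraries bear out, TDG was at 0.18 and was called (edgeR adjusted p = 0.00375).

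In AGO1 and AGO2 cells 7 of 8 genes were relatively nuclear, where 74.5% and 73.4% of all genes differed and 40% and 39.8% were relatively nuclear, and UHRF1 was the exception in both (0.08 and 0.05). AGO1/2 and AGO1/2/3 cells had another pattern, with 6 and 5 of 8 genes called as nuclear, where 68.6% and 70.2% of all genes differed and 36.9% and 36.1% were relatively nuclear. DNMT1 was nuclear by 1.16 ± 0.097 (edgeR adjusted p = 8.01e-11) in AGO1/2 and 0.67 ± 0.097 (adjusted p = 9.89e-07) in AGO1/2/3 cells. TET1 (-0.13 and 0.13) and TET3 (0.12 and -0.01) did not pass edgeR's test. On log2(TPM + 1) limma called both genes as nuclear in both lines: TET1 was at 0.61 in AGO1/2 cells, where the median gene was at 0.48, and TET3 at 0.62 in AGO1/2/3 cells, where it was at 0.30. TET2 stayed nuclear, by 0.25 ± 0.060 (adjusted p = 0.000632) and 0.38 ± 0.061 (adjusted p = 4.72e-06).

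Whether a gene changed by different amounts in the nucleus and the cytoplasm was tested as an interaction, the nuclear minus the cytoplasmic log2 fold change. In AGO1/2 cells 4 of 8 genes were called, against 36.5% of all genes, and in AGO1/2/3 cells 4 of 8, against 22.7%. DNMT1 (1.05 ± 0.137, edgeR adjusted p = 1.75e-06, in AGO1/2 cells) and UHRF1 (1.01 ± 0.177, adjusted p = 7.41e-05) changed upward in the nucleus relative to the cytoplasm. TET1 (-0.94 ± 0.155, adjusted p = 3.58e-05) and TET2 (-0.61 ± 0.086, adjusted p = 4.45e-06) changed the opposite way. DNMT3B gave 0.01 ± 0.119, with a 95% interval of -0.22 to 0.24: it was lower by similar amounts in both fractions. The AGO1/2/3 line gave 0.55 ± 0.136 for DNMT1 (adjusted p = 0.00424), 0.52 ± 0.177 for UHRF1 (adjusted p = 0.0339), -0.68 ± 0.155 for TET1 (adjusted p = 0.00233) and -0.49 ± 0.086 for TET2 (adjusted p = 0.000201). The UHRF1 call there was lost without any 1 of 6 libraries (0.39 to 0.53, adjusted p = 0.0525 to 0.124). On log2(TPM + 1) the TET1 call was lost in both lines, at -0.26 (adjusted p = 0.0973) in AGO1/2 and -0.32 (adjusted p = 0.0616) in AGO1/2/3 cells. Because RNA of a whole culture was measured, fewer cells of a type or stage and less RNA per cell cannot be told apart.

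**Figure D4:**
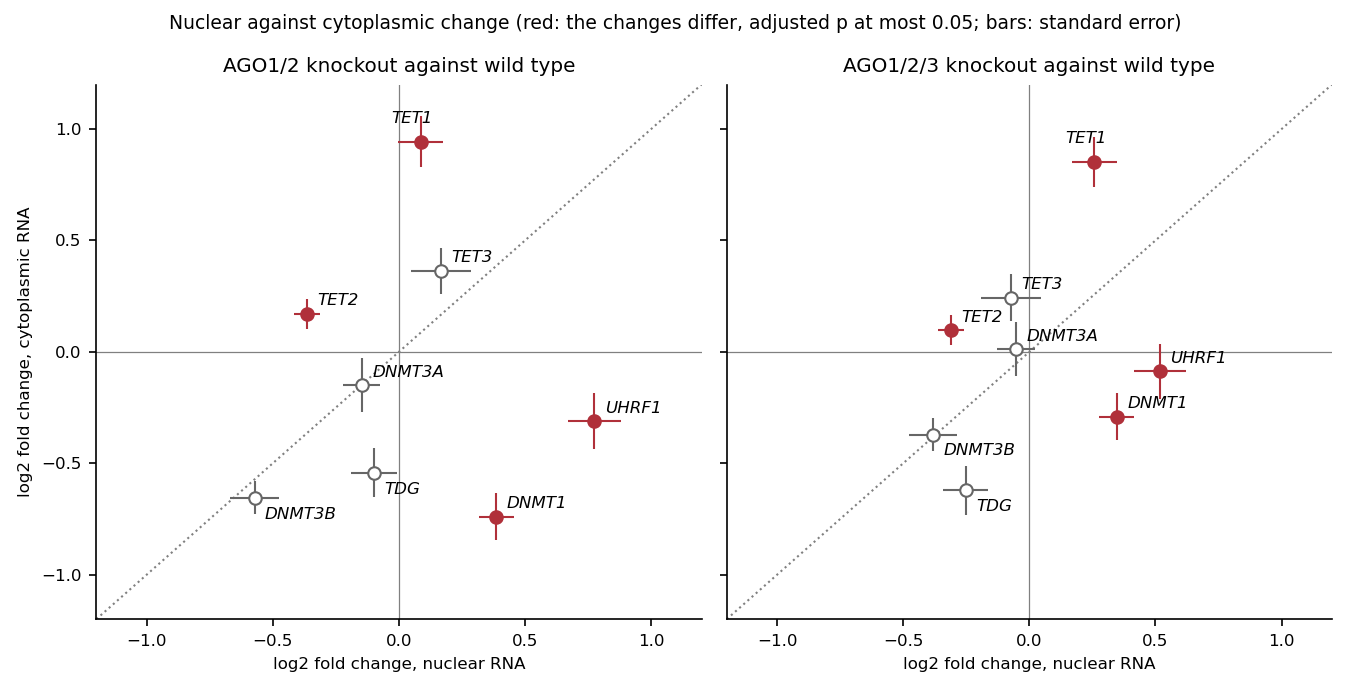
Log2 fold change against wild type in nuclear RNA (horizontal axis) and cytoplasmic RNA (vertical axis) for the 8 genes in AGO1/2 (left) and AGO1/2/3 (right) cells; bars are standard errors, the dotted line marks equal change and filled red points are genes whose change differed between fractions. DNMT1 and UHRF1 lie at the lower right and TET1 and TET2 above the line in both panels, with DNMT1 at 0.39 and -0.74 in AGO1/2 cells (in AGO1/2/3 nuclei DNMT1 turned to -0.014 on log2(TPM + 1)).

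The transcripts of the other members were compared in the same way. Of 28 transcripts of 7 members tested in nuclear RNA, 17 changed their share in AGO1/2 cells, where 36.9% of all transcripts did, and 9 in AGO1/2/3 cells, where 25.7% did. In cytoplasmic RNA 4 and 2 of 19 changed, against 4.11% and 2.23% of all transcripts, and the 2 in AGO1/2/3 cells were those of DNMT3B. In the nucleus, 1 coding transcript each of DNMT1, TET2, DNMT3A and TDG took a larger share in both lines, whereas DNMT1-202 (-0.16 and -0.29) and DNMT3A-201 (0.12 and 0.05) were not called. The coding transcript DNMT3A-206 took a smaller share in both lines (-0.77 and -0.64, limma adjusted p = 0.0132 and 0.0415). In AGO1/2 nuclei TET2-202 fell (-0.65, adjusted p = 0.00739), and TET2-204 (0.47, adjusted p = 0.0361) and TET3-202 (1.01, adjusted p = 0.00251) rose. TET2-202, TET2-204 and TET3-202 were not called in AGO1/2/3 nuclei. DNMT1-201 (ENST00000340748.8, 1616 residues) went from 22.7%, 27.1% and 27.5% in wild-type nuclei to 36.8%, 37.3% and 34.4% in AGO1/2 and 33.3%, 32.3% and 36.1% in AGO1/2/3 nuclei (limma log2 ratio changes 0.71 and 0.57, adjusted p = 0.000807 and 0.0056). TET2-203 (ENST00000380013.9, 2002 residues), the form that encodes the whole enzyme, went from 19.8%, 27.8% and 17.3% to 40.2%, 46.7% and 38.1% and to 37.3%, 37.4% and 42.8% (1.37 and 1.22, adjusted p = 0.00191 and 0.00623). These ranges did not overlap wild type. DNMT3A-202 rose from a mean of 18.3% to 34.1% and 26.0%, and TDG-202 from 45.9% to 62.7% and 57.5%.

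Transcripts annotated with a retained intron, which code for no full protein, held a large share of the nuclear TPM of some members. TPM is corrected for length, so these are not shares of reads or bases. TDG-207, for example, has 1277 bases and the coding TDG-202 has 3183. Reads of unspliced RNA were not told apart from those of such transcripts. Of DNMT1 TPM, retained-intron transcripts held 26.8% ± 1.61 (SD, n = 3) in wild-type, 14.7% ± 1.41 in AGO1/2 and 17.5% ± 1.61 in AGO1/2/3 nuclei. Of TDG TPM they held 44.3% ± 3.23, 32.0% ± 1.5 and 33.4% ± 1.44, the highest share of any member. Of TET2 they held 25.4% ± 10.1, 12.8% ± 2.96 and 14.5% ± 1.89, with 1 wild-type library at 37.0%. The ranges of both lines did not overlap wild type for these 3 genes, and the sums were not tested. Such sums were not made for other genes, so how common this is cannot be told. Of all transcripts tested in nuclei, 36.9% changed their share in AGO1/2 and 25.7% in AGO1/2/3 cells. The share of DNMT1 was 20.4% to 21.9% in AGO1 and 20.8% to 22.9% in AGO2 nuclei, also below the wild-type range of 25.7% to 28.6%. That of TDG was 38.4% to 39.0% in AGO2 nuclei and overlapped wild type in AGO1 nuclei, and that of TET2 overlapped wild type in both. For DNMT3A the sum was 17.0% to 20.4% in wild type, 9.42% to 13.6% in AGO1/2 and 8.51% to 20.8% in AGO1/2/3 nuclei, so that the last overlapped wild type. Among single transcripts, DNMT3A-213 fell from 12.6% to 2.6% and 3.9% (limma log2 ratio changes -1.80 and -1.45, adjusted p = 0.00643 and 0.0284) and TDG-207 from 19.8% to 13.0% and 13.2% (-0.70 and -0.66, adjusted p = 0.00432 and 0.00968). DNMT3A-210 gave 1.24 and 1.81 and was not called. In nuclei the TET3 sum averaged 9.83% in wild-type, 5.10% in AGO1/2 and 6.84% in AGO1/2/3 cells, the last overlapping wild type. In cytoplasm the retained-intron share was at most 7.03% for DNMT1 and 3.55% for TDG in any group mean. That of TET3 averaged 5.41% in wild-type, 3.17% in AGO1, 10.4% in AGO2, 10.1% in AGO1/2 and 6.51% in AGO1/2/3 cytoplasm. Of these lines, AGO2 alone did not overlap wild type. All TPM of UHRF1, DNMT3B and TET1 lay in transcripts annotated as coding in every group. Whether these genes retain introns therefore cannot be read from such shares. Neither main UHRF1 transcript was called for a change of share.

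**Figure D5:**
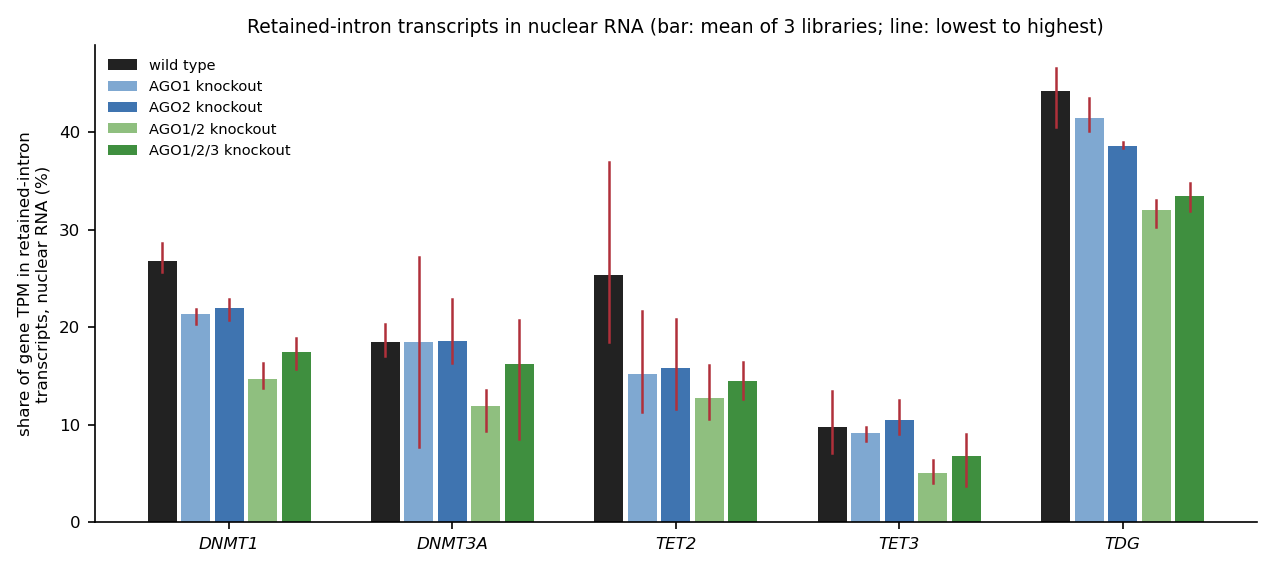
Share of each gene's nuclear TPM in transcripts annotated with a retained intron (vertical axis, percent, from 0) in the 5 genotypes; bars are means of 3 libraries and red lines run from the lowest to the highest. The DNMT1 share was 26.8% in wild-type and 14.7% in AGO1/2 nuclei, the TDG share 44.3% and 32.0%.

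In cytoplasm, the AGO1/2 line had a smaller share of TET2-203, at 48.0%, 51.1% and 43.3% against 71.5%, 56.2% and 64.2% in wild-type cells (limma adjusted p = 0.039), and of TET3-202, at 70.7%, 75.6% and 79.4% against 96.5%, 83.2% and 92.6% (adjusted p = 0.0474). Both calls were lost in 5 of the 6 fits that left out 1 library of the groups compared.

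Genes that work with the members were followed as lists, of which up to 2 with the largest called change in each direction in AGO1/2/3 cells are named. Of 13 maintenance partners and methyl-CpG readers tested, 5 rose and 4 fell in AGO1/2/3 nuclei, with a median log2 fold change of 0.07 against -0.03 over all genes, and 6 rose and 5 fell in the cytoplasm, where 58.6% and 38.7% of all genes changed in the nucleus and cytoplasm. ZBTB4, a zinc finger protein that binds methylated DNA, rose by 1.06 in the nucleus and 1.09 in the cytoplasm, and ZBTB38 by 0.62 and 0.40. UHRF2, the paralog of UHRF1, fell by 0.56 and 0.36, and HELLS, a chromatin remodeller needed for DNA methylation, fell by 0.53 and 0.50. ZBTB33 fell by 0.59 and USP7, a deubiquitinase that partners DNMT1 and UHRF1, by 0.52 in the cytoplasm. Thus partners of the same pathway moved in both directions.

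Of 17 genes for TET cofactors and base excision repair, 6 rose and 3 fell in AGO1/2/3 nuclei, whereas in the cytoplasm 8 fell and none rose (median -0.21 against -0.01 over all genes). These were 9 and 8 of 17, where 58.6% and 38.7% of all genes changed. IDH1, which makes the 2-oxoglutarate that TET enzymes use, rose in the nucleus by 0.95, and GADD45B by 0.75. OGT, a TET partner, fell by 0.61 and SMUG1 by 0.28 in the nucleus, and PARP1 by 0.64 and POLB by 0.45 in the cytoplasm. Of 12 methionine and folate cycle genes, which supply the methyl donor, 7 rose and 3 fell in the nucleus and none rose and 6 fell in the cytoplasm (median -0.20), against the same 58.6% and 38.7% of all genes. TYMS rose by 0.78 and SHMT1 by 0.47 in the nucleus. MAT2A, which makes S-adenosylmethionine, fell by 0.29 and 0.46 in the nucleus and cytoplasm, MTHFD1 by 0.29 in the nucleus and MTR, methionine synthase, by 0.49 in the cytoplasm.

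DNMT1 and UHRF1 are made in S phase, and 18 S phase and proliferation genes were examined beside them. In AGO1/2 cells 13 rose and 1 fell in the nucleus (median 0.41), where 67.6% of all genes changed (median -0.06), and 1 rose and 12 fell in the cytoplasm (median -0.43), where 49.2% did (median -0.01). With AGO3 also absent 9 rose and 2 fell in the nucleus (median 0.22), against 58.6% of all genes changed (median -0.03), and none rose and 8 fell in the cytoplasm (median -0.29), against 38.7% (median -0.01). CCNB1 rose by 0.57 and RRM2 by 0.53 in AGO1/2/3 nuclei, MCM4 fell by 0.41 and POLA1 by 0.28, and CCNE2 fell by 0.65 and MCM6 by 0.50 in the cytoplasm. The change differed between fractions for 12 of the 18 in AGO1/2 and 7 in AGO1/2/3 cells, each time higher in the nucleus, where 36.5% and 22.7% of all genes were called in either direction. The part of these genes in the change of DNMT1 and UHRF1 was not tested.

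Genes often used as readouts of DNA methylation were examined too, although methylation itself was not measured. Of 20 germline genes whose promoters are methylated in somatic cells, 4 passed the filter in nuclear and 3 in cytoplasmic RNA. MAGEB2 rose by 0.78 and MAGEA3 by 0.53 in AGO1/2/3 nuclei and TDRD6 fell by 2.80 on the log2 scale, and none of the 3 tested in the cytoplasm changed. Over all genes, 58.6% changed in AGO1/2/3 nuclei and 38.7% in the cytoplasm. Of 13 imprinted genes tested, 7 rose and 2 fell in AGO1/2/3 nuclei (median 0.61 against -0.03 over all genes) and 5 rose and 1 fell in the cytoplasm, where 58.6% and 38.7% of all genes changed in the nucleus and cytoplasm. CDKN1C, a cell cycle inhibitor, rose by 1.49 and 0.77, and H19, a noncoding RNA, rose by 1.38 and 1.40. IGF2, the reciprocally imprinted neighbour of H19, rose by 0.83 and 0.77, PEG10 fell by 0.36 and 1.0, and KCNQ1OT1 fell by 0.42 in the nucleus. In AGO1 cells imprinted genes gave 1 higher and 3 lower in the nucleus and none higher and 5 lower in the cytoplasm, against 29.9% and 12.4% of all genes.

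Members with a miR-29 seed match did not share a direction. In AGO1/2 cytoplasm TET1, TET2 and TET3 were called higher, DNMT3B and TDG lower, and DNMT3A was not called. The TET2 and TET3 calls were lost in some of the fits given above. DNMT1, which has no match, fell in that fraction. In AGO1/2/3 cytoplasm TET1 (3 matches) rose, DNMT3B (1 match) and TDG (3 matches) fell, and TET3 (10 matches), DNMT3A (4 matches) and TET2 were not called. DNMT1 fell there, a call that was lost without some single libraries. Of 14 other known miR-29 targets tested there, 3 rose and 4 fell, with a median of -0.02 against -0.01 over all genes, of which 38.7% changed. INSIG1, a brake on sterol synthesis, rose by 3.04, and PIK3R1 fell by 1.10 and LAMC1 by 0.63. In the nucleus, where 58.6% of all genes changed, 6 of 15 rose and 4 fell (median 0.10), with INSIG1 at 3.44, SPARC at 2.23, PIK3R1 at -0.85 and FBN1 at -0.81.

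Last, protein-coding genes were ranked by how closely their level followed each member across the 30 libraries, centred within each fraction, among 7017 genes of at least 5 TPM. The closest to DNMT1 were XAB2 (Pearson r = 0.98), SUPT16H and CNOT3, and the closest to UHRF1 were ABCF1 (r = 0.95), RANGAP1 and SSRP1. CBR4 (r = 0.91), ESRP1 and ZRANB2 were closest to DNMT3B. CCDC186 (r = 0.88), AFF4 and ASS1 were closest to DNMT3A, and TMEM50B (r = 0.91), RIC1 and ATOX1 to TET1. XRRA1 (r = 0.88), FNTA and TRIP11 were closest to TET2, ZMYND19 (r = 0.91), NFATC3 and TYW3 to TET3, and ELOA (r = 0.94), NOL10 and TRMT5 to TDG. Of the pairs of members, DNMT1 and UHRF1 had the highest value (r = 0.72). These values describe 10 groups of 3 libraries that share lines and depth.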

How the data were processed

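RNA-seq of nuclear and cytoplasmic RNA was available for 30 of 38 samples in the labels, and the 8 eCLIP samples were not used here. Per the labels, RNA was isolated with Trizol, ribosomal RNA was depleted and libraries were stranded. The submitters' processing notes name STAR 2.5.3a, Salmon 0.11.0, DESeq2 and build hg38. The authors deposited, for each transcript, Salmon's estimated counts and TPM. The annotation release could not be matched, so GENCODE 44 on GRCh38 gave gene names: of 200401 transcripts, 195887 matched, and the 4514 unmatched held 2.23% to 4.01% of reads.

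Estimated counts were summed per gene and rounded. Genes were filtered with edgeR 4.0.16 (filterByExpr, minimum count 10), scaled by TMM and tested by quasi-likelihood with Benjamini-Hochberg adjustment over all genes, fitting the 15 nuclear or 15 cytoplasmic libraries together, or all 30 for fractions and interactions. Differences are log2 fold changes with standard errors. CPM were scaled within each fraction. Transcript shares were tested with limma 3.58.1 on log2 ratios of TPM with a pseudocount of 0.1, for transcripts of at least 5% mean share in genes of at least 1 TPM. Alternatives used DESeq2 1.42.0 and R 4.3.3, other filters and scales, single libraries left out, and culture as a replicate block. Same-passage libraries of both fractions deviated together in every wild-type pair (r = 0.431 to 0.710). In the knockout lines r ran from 0.0091 to 0.588 and was always higher than the mean r with other passages. The lowest r of each knockout line (0.0091 to 0.0966) was under a set limit of 0.1, so passage was taken as pairing for wild type alone. A low r does not show that pairing was absent. Scripts were tested on simulated data. Sequence matches used the longest annotated 3′ UTR of each gene, and the count in the canonical TET2 transcript was added after the data were seen.

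The members and the gene lists were chosen with earlier results of these data known. All members were named in every comparison, with transcripts of at least 10% mean share in a group. From each list, up to 2 called genes with the largest change in each direction in AGO1/2/3 cells were named per fraction. One gene that this rule names is not reported here. For likeness, 3 genes per member were named.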

Additional observations from a re-analysis of the deposited data

Results flagged for a closer look

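Of the 8 genes, 4 changed by different amounts in the nucleus and the cytoplasm, by edgeR's interaction test, in each of the lines that lack more than 1 AGO protein, against 36.5% of all genes in AGO1/2 and 22.7% in AGO1/2/3 cells. The values are nuclear minus cytoplasmic log2 fold changes against wild type. In AGO1/2 cells they were 1.05 for DNMT1, 1.01 for UHRF1, -0.94 for TET1 and -0.61 for TET2. In AGO1/2/3 cells they were 0.55 for DNMT1, 0.52 for UHRF1, -0.68 for TET1 and -0.49 for TET2. The nuclear to cytoplasmic ratio of DNMT1 and UHRF1 was thus higher, and that of TET1 and TET2 lower, than in wild-type cells. The UHRF1 call in AGO1/2/3 cells was lost without any 1 of 6 libraries (adjusted p = 0.0525 to 0.124), and the TET1 call was lost in both lines on log2(TPM + 1) (adjusted p = 0.0973 and 0.0616). Both lines were compared with the same wild-type libraries. DNMT3A, DNMT3B, TET3 and TDG did not pass this test in either line, but with culture as a block TET3 and TDG passed it in both.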

How the results depend on the processing

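Of the members' fold changes recomputed with other settings, 664 kept direction and side of the threshold, 40 turned, 67 gained and 37 lost a call. With single libraries left out the numbers were 739, 30, 22 and 37. The cause of each change was not tested. The depth of the wild-type libraries, the spread between passages and Salmon's division of reads between transcripts limit small differences, and 1 line stands for each genotype.

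On log2(TPM + 1) and log2(TPM + 0.1), on which the median gene of a fraction fell by up to 0.20 and 0.36, these turned: in AGO1 nuclei TET2 (-0.36 and -0.39), TET3 (-0.0372 and -0.0356) and TDG (-0.0656 and -0.067), and DNMT1 in AGO2 (-0.0263 and -0.0264) and AGO1/2/3 nuclei (-0.0141 on both). In the cytoplasm, UHRF1 (-0.0661 and -0.0675), TET1 (-0.04 and -0.0642) and TDG (-0.0835 and -0.0898) turned in AGO1 cells, UHRF1 (-0.0393 and -0.0399) in AGO2 cells, TET2 (-0.11 and -0.15) in AGO1/2 cells, and DNMT3A (-0.12 and -0.16) and TET2 (-0.10 and -0.14) in AGO1/2/3 cells. Between fractions on log2(TPM + 1), UHRF1 in wild type was at 0.22, TET1 in AGO1/2 at 0.61 and TET3 in AGO1/2/3 at 0.62, and the DNMT3A interaction in AGO1/2 cells was 0.0122. With counts scaled by transcript length, TET2 was at -0.13 in AGO1 nuclei, and between fractions UHRF1 was at -0.0223 in AGO1 and -0.0333 in AGO2 cells and TET3 at -0.0288 in AGO1/2 and 0.023 in AGO1/2/3 cells. RLE size factors and DESeq2 put TET3 at 0.0736 between AGO1/2/3 fractions and the DNMT3B interaction in AGO1/2 cells at -0.0838 and -0.0835. With no low-count filter TDG was at 0.0137 in AGO2 and DNMT3A at 0.0161 in AGO1/2/3 nuclei. With a mean count of at least 50, TET1 was at -0.017 in AGO1/2 nuclei.

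Counts over all genes moved most for AGO1/2/3 against AGO1/2 cells. The nuclear count of 659 became 251 with length-scaled counts, 2297 on log2(TPM + 1), 2178 on log2(TPM + 0.1), 1272 with no filter, 113 with only the 2 groups compared and 1979 by DESeq2. The cytoplasmic count of 872 became 549 with length-scaled counts, 1 with only the 2 groups and 2117 by DESeq2. With only the 2 groups, AGO1 nuclei gave 3747 (5651 in the fit of all nuclear libraries), AGO1 cytoplasm 832 (2185) and AGO2 cytoplasm 1348 (2828), and AGO2 cytoplasm gave 5090 and 4983 on the TPM scales. For transcripts, a mean share of at least 10% gave 10090 and 7044 in nuclei and 754 and 415 in cytoplasm of AGO1/2 and AGO1/2/3 cells, and a pseudocount of 1 TPM gave 4152 and 2074 in cytoplasm.

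With single libraries left out, the count for AGO1/2/3 against AGO1/2 was 31 to 3153 in nuclei, highest without AGO1/2 passage 11, and 5 to 2312 in cytoplasm, again highest without AGO1/2 passage 11. It was 1219 to 2317 in AGO1 cytoplasm (1219 without AGO1 passage 7, 1254 without 6) and 1689 to 2770 in AGO2 cytoplasm (1689 without AGO2 passage 8). Transcripts gave 496 to 1043 in AGO1/2 cytoplasm (496 without AGO1/2 passage 10, 579 without 9) and 294 to 678 in AGO1/2/3 cytoplasm (294 without AGO1/2/3 passage 14). Members near 0 that turned ranged as follows. In nuclei, TET3 was at -0.0014 to 0.30 in AGO1 and -0.22 to 0.0774 in AGO1/2/3, TDG at -0.12 to 0.0708 in AGO2 and -0.18 to 0.0047 in AGO1/2, and DNMT3A at -0.0755 to 0.019 in AGO1/2/3. In cytoplasm, AGO1 cells gave -0.0487 to 0.22 for UHRF1, -0.0344 to 0.16 for TET1 and -0.0567 to 0.14 for TDG. DNMT3A was at -0.24 to 0.0016 in AGO1/2 and -0.0786 to 0.16 in AGO1/2/3 cytoplasm, and UHRF1 at -0.15 to 0.0438 in the latter. Between fractions, UHRF1 was at -0.0177 to 0.21 in AGO1 and -0.0011 to 0.11 in AGO2, and TET3 at -0.0446 to 0.0401 in AGO1/2/3. Interactions gave -0.21 to 0.0131 for DNMT3A and -0.0491 to 0.10 for DNMT3B in AGO1/2, and -0.15 to 0.0004 for DNMT3B in AGO1/2/3.

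With culture as a replicate block, the AGO1/2/3 interaction called 7011 genes against 4567. In the knockout lines same-passage libraries deviated together to varying degrees (r = 0.0091 to 0.588). There edgeR then also called TET1 (-0.13, adjusted p = 0.0484) and TET3 (0.12, adjusted p = 0.0384) between AGO1/2 fractions, and UHRF1 (0.22, adjusted p = 0.0442) and TET1 (0.13, adjusted p = 0.0422) between AGO1/2/3 fractions. It also called the interactions of TET3 (-0.26, adjusted p = 0.00431) and TDG (0.37, adjusted p = 0.000383) in AGO1/2 and of TET3 (-0.38, adjusted p = 0.000348) and TDG (0.29, adjusted p = 0.00479) in AGO1/2/3 cells. Apart from TDG between wild-type fractions, it changed no other member's call.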
